A study of Homo sapiens with 6 samples.

Results

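The genes described here are 10 named members of the BMP and TGF-β response, found by gene name among the 26025 genes of the deposited table. They are the ID factors ID1, ID2, ID3 and ID4, the inhibitory SMADs SMAD6 and SMAD7, and the ligand genes BMP2, BMP4, INHBA and TGFB2. RNA-seq was performed on NCI-H1299, a cell line grown from a human lung carcinoma, with 3 Ctrl libraries and 3 libraries of cells treated with 10 µM norepinephrine (NE) for 48 h. All cultures were first held in DMEM and then kept in RPMI-1640 with low serum during the treatment. The study's methods name RPMI-1640, not DMEM, as the medium of NCI-H1299 and describe starving the cells before drug treatment. The labels name the vehicle of the Ctrl cultures as DMSO in one field and as PBS in another. The labels number the replicates but do not say whether they were separate cultures, so the p-values measure the spread between these libraries only. The comparison addresses which genes NE changed in these cells, and here it is read for the BMP and TGF-β branch.

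BMP ligands bind type I and type II receptors that phosphorylate SMAD1, SMAD5 and SMAD9, whereas activins and TGF-β ligands signal through SMAD2 and SMAD3, and both arms share SMAD4. The ID genes are classical BMP targets. Their proteins carry a helix-loop-helix domain without a DNA-binding region and capture E proteins such as TCF3, TCF4 and TCF12, which then cannot activate their genes. SMAD6 and SMAD7 are induced by the pathway and block its receptors, SMAD6 mainly on the BMP side and SMAD7 on both sides. NE acts through adrenergic receptors, and β-adrenergic signaling raises cAMP and activates CREB, which binds the cAMP response element (CRE).

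The sequences upstream of ID1, ID2, ID3 and SMAD6 are shown because these members rose and because short SMAD and CREB motifs lie there. Members that did not rise held such motifs too. Starts and promoter windows were taken from RefSeq (GRCh38.p14), which held 9 of the 10 members and lacked BMP2. All 35116 windows read the same on hg38. Each line is written 5′ to 3′ on the strand of the gene, and capitals mark a motif match. The motifs, searched on both strands, were the CRE core TGACG, the full CRE TGACGTCA (which holds 2 overlapping cores), the GC-rich SMAD element GGCGCC, the palindromic SMAD-binding element GTCTAGAC and the E-box CACGTG.
ID1: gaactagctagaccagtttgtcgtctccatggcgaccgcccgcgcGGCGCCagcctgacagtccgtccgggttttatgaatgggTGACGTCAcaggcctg
ID2: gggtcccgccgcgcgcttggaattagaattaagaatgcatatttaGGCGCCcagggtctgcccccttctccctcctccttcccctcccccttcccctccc
ID3: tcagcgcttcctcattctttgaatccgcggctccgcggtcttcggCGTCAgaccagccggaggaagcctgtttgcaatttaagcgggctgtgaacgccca
SMAD6: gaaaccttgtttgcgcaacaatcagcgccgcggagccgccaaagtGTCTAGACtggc

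The ID1 stretch lies on hg38 at chr20:31604279-31604378 on the plus strand, upstream of the gene. Counted from the first transcribed base, the GC-rich SMAD element of ID1 spans -965 to -960, and a full CRE follows from -926 to -919. Among all windows of 1500 bases before a start, 35.1% held the GC-rich element, 2.66% held the full CRE and 1.34% held both. The ID2 stretch lies at chr2:8681603-8681702 (plus strand), with the GC-rich element from -408 to -403. It is upstream of the RefSeq start but inside the longer span that GENCODE v44 gives ID2. The ID3 stretch lies at chr1:23559597-23559696 (minus strand), with a CRE core from -150 to -146. Cores were found in 21.2% of all windows of 250 bases and in 52.4% of those of 1500 bases. The SMAD6 stretch lies at chr15:66702179-66702235 (plus strand), and its palindromic element ends 5 bases before the start, from -12 to -5. This element was found in 0.182% of the windows of 250 bases and in 0.928% of those of 1500 bases. SMAD7 held the same element farther upstream, from -1260 to -1253 of its first start. GC-rich elements also lay upstream of SMAD7, which fell, and of ID4 and BMP4, which did not pass the test. CRE cores also lay upstream of SMAD7, ID4 and TGFB2, and INHBA held no match. The GC-rich element, the CRE core and the palindromic element therefore did not separate members that rose from the others. E-boxes lay upstream of SMAD7, BMP4 and TGFB2 but not of ID1, ID2, ID3 or SMAD6. Among all windows of 1500 bases 21.3% held an E-box. Of the members with a window, ID1 alone held the full CRE. These matches are letters in a window; binding was not measured here.

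Each Ctrl library held 17373654 to 17979206 reads on genes, and each NE library 16852751 to 17325039. Ctrl replicate 3 stood apart: 7305 genes had 0 reads in it, compared with 4829 and 4833 genes in Ctrl replicates 1 and 2. The epithelial and mesenchymal markers KRT8, KRT18 and VIM were abundant in every library, with at least 5232 normalized counts, but were lower in NE libraries. KRT18 fell by 1.62, KRT8 by 1.06 and VIM by 0.38 on the log2 scale (adjusted p = 8.24e-05, 0.000604 and 0.0462 by limma), and the part of these falls in the results below was not tested. With the GC correction described below they were at -1.18, -0.62 and -0.23, and VIM did not pass (adjusted p = 0.325). The endothelial marker CDH5 was at 0 to 9.80 and PECAM1 at 16.5 to 36.6 normalized counts. The log2 fold changes followed exon GC content, with a Spearman correlation of -0.644 across 14955 genes, which are not independent replicates. GC-poor genes were higher in NE libraries, and each fold change below was therefore also computed after each library's GC trend was removed. The part of this trend in the results below was not tested apart from that correction.

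NE treated cells had more RNA of ID1, ID2, ID3, SMAD6 and BMP2 and less of SMAD7. A gene is said to rise or fall where the adjusted p was under 0.05 by limma with Benjamini-Hochberg adjustment over the 15013 genes tested, those whose normalized counts averaged 10 or more. A normalized count is the number of reads on a gene divided by 1 size factor per library. Of the 10 members 9 were tested, 5 rose and 1 fell, beside 24.6% of all tested genes that rose and 25.5% that fell. With the added criterion of a 2-fold change, ID2, ID3 and SMAD6 were called higher and 0 members lower, beside 7.47% and 6.55% of all tested genes. The number called higher was 5 without Ctrl replicate 3, with ID4 and BMP2 added, and 5 after the GC correction, with ID1 and BMP2 added. The count of members called lower was also 0 at an unadjusted p under 0.05, by edgeR and by DESeq2. The NE and Ctrl libraries did not overlap for 4 members that were higher in NE and 1 that was lower, beside 29.7% and 28.9% of the tested genes. The median log2 fold change of the tested members was 1.01 and that of all tested genes 0.01. The members' median was the value of BMP4, which had 0 to 25 reads per library and did not pass the test. By edgeR BMP4 was at 0.36, and without Ctrl replicate 3 at -0.38 by limma. In bulk RNA a change in every cell and a change in the share of cells that carry the RNA cannot be told apart.

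**Figure D1:**
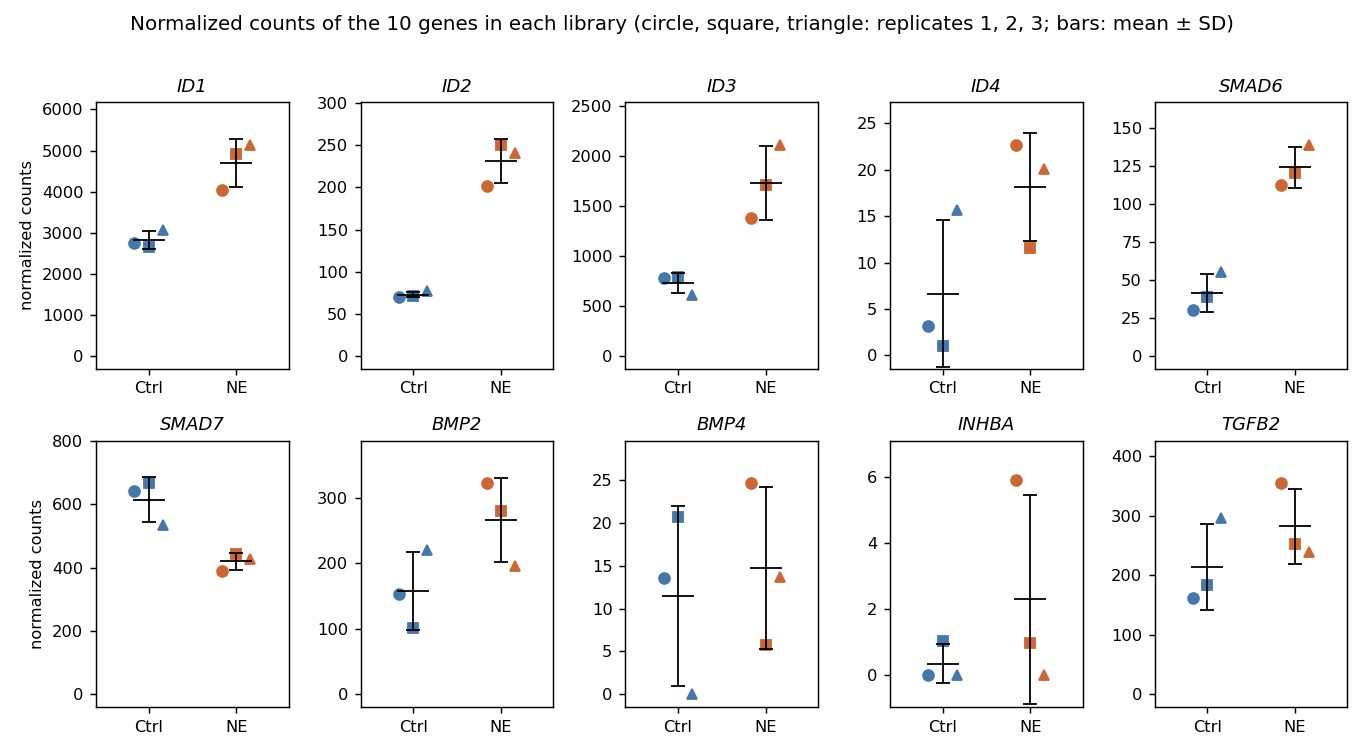
Normalized counts (vertical axes, linear, a separate scale for each gene) of the 10 members in the 3 Ctrl (blue) and 3 NE (orange) libraries; circle, square and triangle stand for replicates 1, 2 and 3, and bars for the mean ± SD. The groups are separate for ID1, ID2, ID3, SMAD6 and SMAD7, and overlap for ID4, BMP2, BMP4, INHBA and TGFB2.

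**Figure D2:**
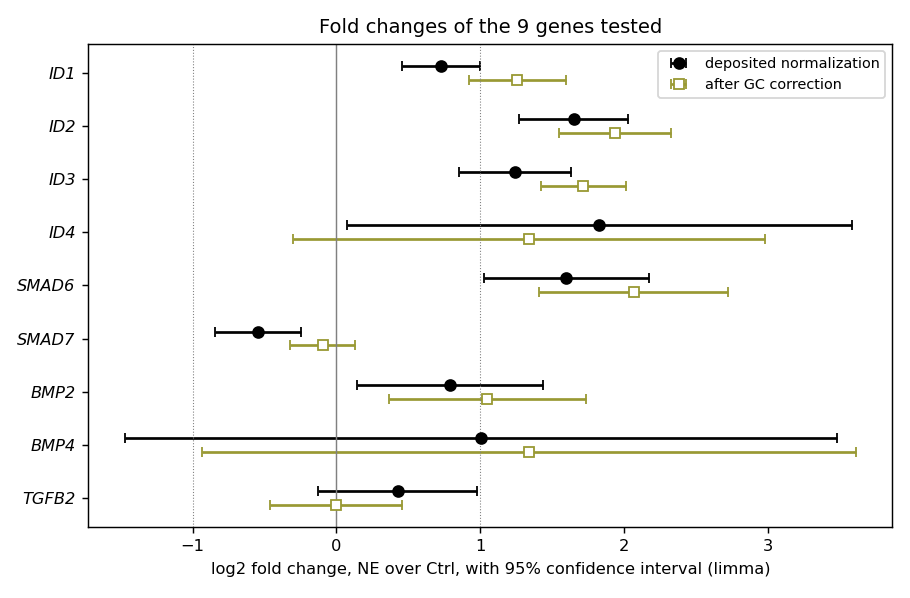
Log2 fold change of NE over Ctrl (horizontal axis) with its 95% confidence interval from limma for the 9 members tested, before (filled circles) and after (open squares) correction for GC content; dotted lines mark a 2-fold change. ID1, ID2, ID3, SMAD6 and BMP2 lie above 0 in both, whereas SMAD7 and TGFB2 lie close to 0 after the correction.

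ID1 (ENSG00000125968, chr20:31605283-31606515, plus strand) was the most abundant member. Its normalized counts were 2736, 2658 and 3076 in Ctrl and 4035, 4908 and 5144 in NE libraries. All NE libraries lay above all Ctrl libraries, and NE replicate 1 was the lowest of the 3. ID1 rose by 0.73 on the log2 scale (SE 0.120, adjusted p = 0.00121 by limma), or 1.66-fold. This change was between 0.66 and 0.83 with any library left out, below the 2-fold criterion. With 58.6% GC in its exons, against a median of 47.5% in tested genes, ID1 is a GC-rich gene, and the correction raised the change to 1.26 (adjusted p = 0.00028 by limma).

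ID2 (ENSG00000115738, chr2:8678845-8684461, plus strand) and SMAD6 showed the largest fold changes of the members that passed the test, and which of them led depended on the setting: SMAD6 was above ID2 after the GC correction (2.07 and 1.94), without Ctrl replicate 3 (1.82 and 1.69) and without NE replicate 2 (1.62 and 1.59). ID2 had 70.2, 71.6 and 76.4 normalized counts in Ctrl and 202, 251 and 241 in NE libraries. The Ctrl libraries were close together and the groups were far apart, at 72.7 ± 3.29 and 231 ± 26.1 normalized counts (SD, n = 3 each). ID2 rose by 1.65 on the log2 scale (SE 0.167, adjusted p = 0.000153 by limma), or 3.14-fold, and 1.94 after the GC correction. The antisense gene ID2-AS1 shares 145 exon bases with ID2. It had 3.92 to 8.38 normalized counts in Ctrl and 15.5 to 20.3 in NE libraries, and the sources used here do not say whether counting used strand.

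ID3 (ENSG00000117318, chr1:23557926-23559501, minus strand) followed the same direction. Its normalized counts were 782, 788 and 608 in Ctrl and 1374, 1712 and 2112 in NE libraries. The NE libraries were spread more widely than the Ctrl libraries, with SDs of 370 and 103, but the groups did not overlap. ID3 rose by 1.24 on the log2 scale (SE 0.173, adjusted p = 0.000559 by limma), or 2.37-fold, and 1.72 after the GC correction.

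ID4 (ENSG00000172201, chr6:19837370-19842197, plus strand) was rare. It had 3, 1 and 16 reads in Ctrl and 23, 12 and 22 reads in NE libraries, and Ctrl replicate 3 lay inside the NE range. The log2 fold change of 1.83 had a 95% confidence interval from 0.07 to 3.59, and it did not pass the test (adjusted p = 0.0773 by limma). Without Ctrl replicate 3 it was 2.67 (adjusted p = 0.00221 by limma), and after the GC correction 1.34 (adjusted p = 0.191). With 1 to 23 reads per library, ID4 was measured with little precision.

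Levels of different genes were compared as FPKM, recomputed from the recovered reads and the merged exon length of GENCODE v44. FPKM values and their sums, shares and ratios, here and below, were not corrected for GC content. ID1 was at 127 ± 12.5 FPKM in Ctrl and 233 ± 38.1 in NE libraries (SD, n = 3 each), and ID3 at 26.9 ± 3.33 and 71.2 ± 18.1. ID2 was at 1.83 ± 0.118 and 6.40 ± 0.933 FPKM. ID4 stayed under 0.35 FPKM in every library. Summed over the 4 ID genes, the level was 153, 149 and 167 FPKM in Ctrl and 250, 321 and 362 FPKM in NE libraries. ID1 made up 79.4% to 84.9% of this sum in Ctrl and 73.2% to 76.3% in NE libraries. ID3 made up 13.8% to 19.4% in Ctrl and 21.4% to 24.8% in NE libraries, and the share of ID2 moved from between 1.14% and 1.19% to between 1.91% and 2.16%. The ranges of these shares did not overlap between the groups for ID1, ID2 or ID3.

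**Figure D3:**
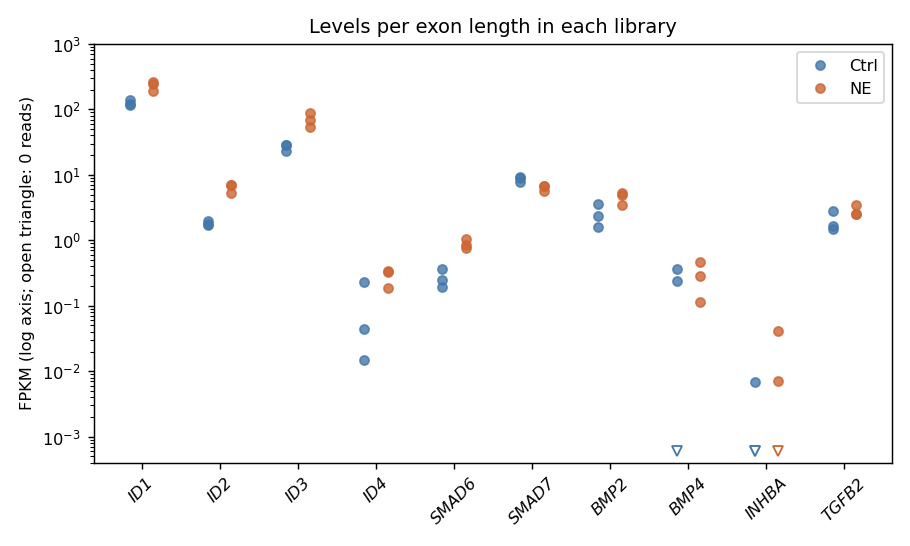
FPKM (vertical axis, log scale) of each member in each Ctrl (blue) and NE (orange) library, 1 point per library; open triangles at the bottom stand for libraries with 0 reads. ID1 and ID3 are the highest of the 10 genes, and ID4, BMP4 and INHBA are at or under 0.5 FPKM.

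The inhibitory SMADs moved in opposite directions. SMAD6 (ENSG00000137834, chr15:66702236-66782849, plus strand) had 30.4, 38.4 and 54.9 normalized counts in Ctrl and 113, 120 and 139 in NE libraries. The lowest NE library was above the highest Ctrl library, which was Ctrl replicate 3. SMAD6 rose by 1.60 on the log2 scale (SE 0.254, adjusted p = 0.00102 by limma), or 3.03-fold, and 2.07 after the GC correction. SMAD7 (ENSG00000101665, chr18:48919853-48950965, minus strand) had 643, 667 and 533 normalized counts in Ctrl and 389, 443 and 426 in NE libraries. All NE libraries lay below all Ctrl libraries. Its log2 fold change was -0.55 (SE 0.132, adjusted p = 0.0078 by limma) and lay between -0.64 and -0.48 with any library left out. After the GC correction it was -0.10 (adjusted p = 0.502 by limma), so the fall of SMAD7 did not pass the test on that scale, whereas the rise of SMAD6 did.

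Per length, SMAD7 remained the more abundant of the pair, at 8.63 ± 0.849 FPKM in Ctrl and 6.50 ± 0.637 in NE libraries, beside 0.268 ± 0.0867 and 0.887 ± 0.134 FPKM of SMAD6 (SD, n = 3 each). The ratio of SMAD6 to SMAD7 was 0.0218, 0.0265 and 0.0475 in the Ctrl libraries. In the NE libraries it was 0.133, 0.125 and 0.150, and the groups did not overlap. The sum of both genes was 8.03 to 9.52 FPKM in Ctrl and 6.53 to 7.89 FPKM in NE libraries.

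Among the ligand genes, BMP2 was the only one that passed the test, and it did so narrowly. BMP2 (ENSG00000125845, chr20:6767686-6780246, plus strand) encodes a BMP that activates SMAD1, SMAD5 and SMAD9. It had 153, 102 and 220 normalized counts in Ctrl and 323, 281 and 196 in NE libraries. NE replicate 3 lay below Ctrl replicate 3, so the groups overlapped. The log2 fold change was 0.79 (SE 0.287, adjusted p = 0.0448 by limma), and 1.05 after the GC correction (adjusted p = 0.0257). The test was missed without Ctrl replicate 1, Ctrl replicate 2, NE replicate 1 or NE replicate 2, with adjusted p from 0.0777 to 0.169, and by edgeR (adjusted p = 0.051). Without Ctrl replicate 3 the log2 fold change was 1.06 (adjusted p = 0.000895 by limma).

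TGFB2 (ENSG00000092969, chr1:218345336-218444619, plus strand), a TGF-β ligand, had 161, 184 and 296 normalized counts in Ctrl and 355, 253 and 238 in NE libraries. Ctrl replicate 3 was above NE replicates 2 and 3. The log2 fold change of 0.43 (95% confidence interval -0.13 to 0.98, adjusted p = 0.176 by limma) did not pass the test. It was 0.69 without Ctrl replicate 3 (adjusted p = 0.0039) and 0.00 after the GC correction. The antisense gene TGFB2-AS1 shares 701 exon bases with TGFB2 and was at 0 to 9.88 normalized counts.

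BMP4 (ENSG00000125378, chr14:53949736-53958761, minus strand), a second BMP ligand, had 13, 20 and 0 reads in Ctrl and 25, 6 and 15 reads in NE libraries. The groups overlapped. The log2 fold change was 1.01 with a 95% confidence interval from -1.47 to 3.48 (adjusted p = 0.468 by limma), and its sign rested on Ctrl replicate 3, without which it was -0.38. INHBA (ENSG00000122641, chr7:41667168-41705834, minus strand), which encodes the activin βA chain, had 0, 1 and 0 reads in Ctrl and 6, 1 and 0 reads in NE libraries. It was under the minimum mean and was not tested. At this depth a difference of INHBA was not detectable, and an exon overlap of 248 bases with INHBA-AS1 adds to the uncertainty.

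The pathway around the members was described with 103 further genes in 7 lists, of which 74 were tested, 28 rose and 20 fell, beside 24.6% and 25.5% of all tested genes. With the 2-fold criterion 11 were called higher and 6 lower, beside 7.47% and 6.55%. The numbers called were 7 and 4 without NE replicate 1, 10 and 3 without Ctrl replicate 2, and 9 and 2 after the GC correction. The 9 included ATOH8 and GATA2 and the 2 included SMURF2, which were not called before the correction. The median log2 fold change of the 74 genes was 0.30, and 0.19 after the GC correction, when 25 rose and 7 fell. TGFB1, BMP6, AMH, SMAD2, SMAD3, SMURF2, ATOH8, GATA2 and the LTBP genes are named here and below after their values were seen.

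**Figure D4:**
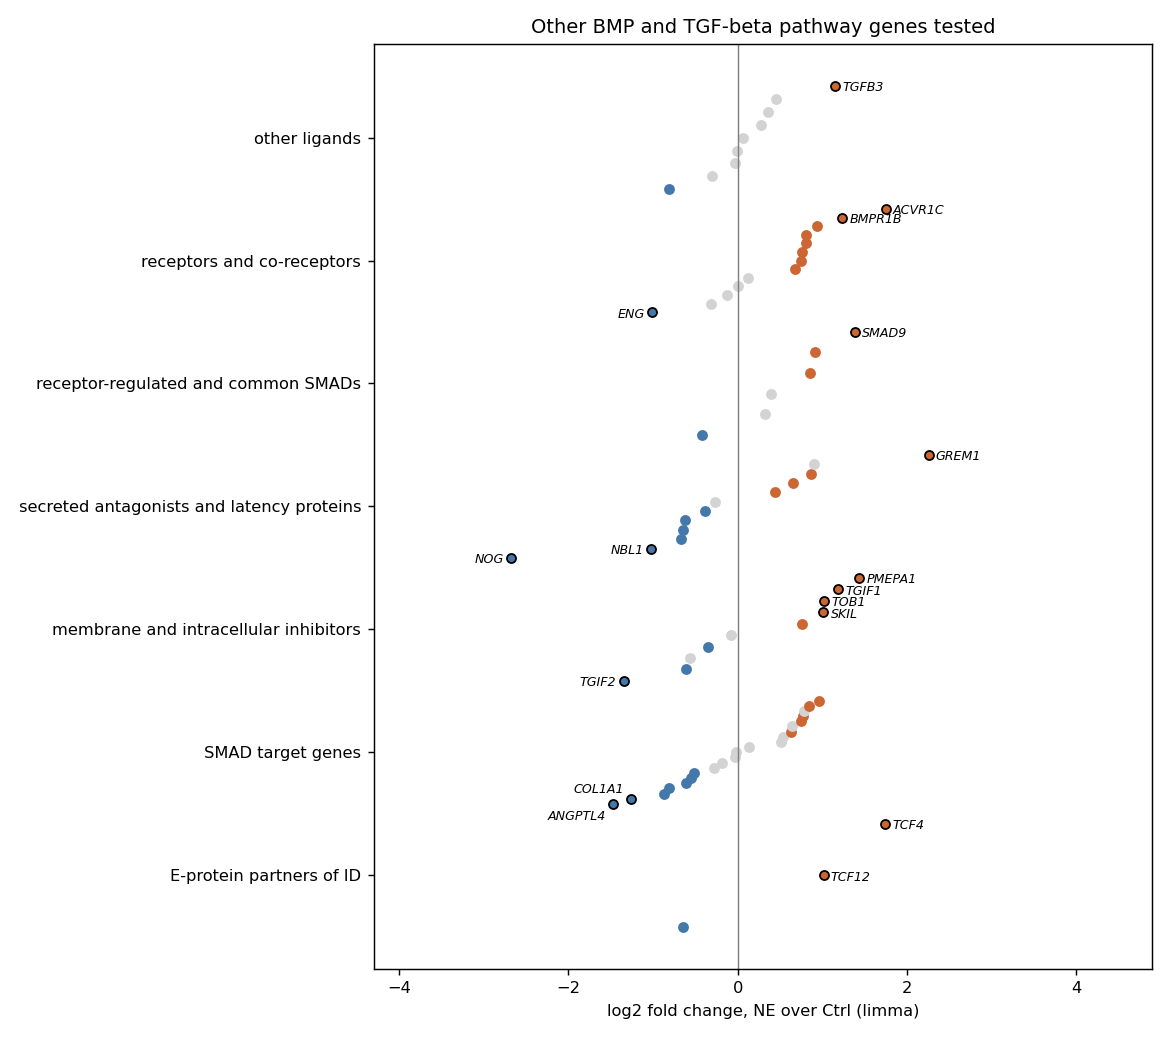
Log2 fold change of NE over Ctrl (horizontal axis) of the 74 further pathway genes tested, by list; orange points rose, blue points fell, grey points did not pass the test, and named points with a black edge also met the 2-fold criterion. GREM1 lies farthest to the right and NOG farthest to the left.

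Among 25 other ligand genes 9 were tested, 1 rose and 1 fell, with a median log2 fold change of 0.06. On the corrected scale 3 rose, TGFB3, BMP6 and AMH, and the median was 0.40. BMP6 was at 0.45 before the correction (adjusted p = 0.053 by limma) and at 0.89 after it (adjusted p = 0.00391). AMH was at -0.03 before (adjusted p = 0.938) and at 0.62 after it (adjusted p = 0.0165). TGFB1, the most abundant ligand gene at 223 FPKM in Ctrl and 139 FPKM in NE libraries, fell by 0.81 on the log2 scale (adjusted p = 0.000744 by limma). With the GC correction it was at -0.20 (adjusted p = 0.0997). TGFB3 rose by 1.15 (adjusted p = 0.0276 by limma), and by 1.37 after the GC correction (adjusted p = 0.00998). TGFB3 had 61.8, 77.8 and 25.5 normalized counts in Ctrl and 101, 111 and 124 in NE libraries. Without Ctrl replicate 3 its change was 0.68, under the 2-fold criterion, and it missed the test when any 1 NE library was left out, with adjusted p from 0.07 to 0.0916.

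Of 16 receptors and co-receptors 13 were tested, 8 rose and 1 fell, with a median log2 fold change of 0.75. ACVR1C, a type I receptor, rose by 1.75 (adjusted p = 0.000748 by limma), and BMPR1B, a BMP type I receptor, by 1.23 (adjusted p = 0.0012). After the GC correction ACVR1C was at 1.03 (adjusted p = 0.00578) and BMPR1B at 0.64, under 2-fold (adjusted p = 0.021). BMPR2, the BMP type II receptor, rose by 0.81 (adjusted p = 0.00637) but only by 0.19 on the corrected scale, where it did not pass (adjusted p = 0.259). After the correction the median of the receptors was 0.19, with 4 that rose and 1 that fell. TGFBR2, the TGF-β type II receptor, was at -0.31 (adjusted p = 0.0854 by limma) and at -0.57 after the correction (adjusted p = 0.00547). The co-receptor ENG fell by 1.01, a change that was under 2-fold without Ctrl replicate 2, NE replicate 2 or NE replicate 3 and that did not pass after the correction (-0.41, adjusted p = 0.174).

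Of the 6 signal-transducing SMADs 3 rose and 1 fell, with a median log2 fold change of 0.62, and after the GC correction 2 rose and 1 fell. SMAD9, a BMP-side SMAD and itself a BMP target, had 36.7, 20.7 and 31.4 normalized counts in Ctrl and 67.2, 88.1 and 75.8 in NE libraries. It rose by 1.38 on the log2 scale (SE 0.282, adjusted p = 0.00343 by limma) and by 1.03 after the GC correction (adjusted p = 0.0197). SMAD5 rose by 0.86 (adjusted p = 0.00188), with 0.28 after the correction (adjusted p = 0.0603). SMAD1 and SMAD4 had log2 fold changes of 0.39 and 0.32 and did not pass the test (adjusted p = 0.0864 and 0.104 by limma). After the GC correction SMAD4 changed sign and was the 1 that fell, at -0.35 (adjusted p = 0.0186 by limma). SMAD1 was then at -0.01 (adjusted p = 0.977). The SMADs of the TGF-β side differed in direction. SMAD2 rose by 0.91 (adjusted p = 0.000326 by limma), with 0.37 on the corrected scale (adjusted p = 0.00651). SMAD3 fell by 0.43 (adjusted p = 0.00383), with -0.14 on the corrected scale (adjusted p = 0.266).

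Of 19 secreted antagonists and latency proteins 12 were tested, 4 rose and 6 fell, with a median log2 fold change of -0.33. With the correction 2 rose and 1 fell, with a median of 0.04. NOG, which binds BMPs outside the cell, had 151, 118 and 220 normalized counts in Ctrl and 24.7, 23.2 and 23.8 in NE libraries. The NE libraries were close together and far below Ctrl. Its log2 fold change was -2.67 (SE 0.263, adjusted p = 0.000135 by limma), and -2.13 after the GC correction. GREM1, a BMP antagonist of another family, went the opposite way. GREM1 had 5, 12 and 7 reads in Ctrl and 43, 59 and 30 reads in NE libraries, a log2 fold change of 2.26 (SE 0.451, adjusted p = 0.00309 by limma). After the GC correction GREM1 was at 1.69 (adjusted p = 0.0183).

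FST, the activin antagonist follistatin, was at 0.90 on the log2 scale and did not pass the test (adjusted p = 0.0865 by limma). NBL1, another BMP antagonist, fell by 1.02 (adjusted p = 0.00804), with -0.41 after the correction (adjusted p = 0.0594). Its change was under 2-fold without Ctrl replicate 1, Ctrl replicate 2 or NE replicate 1. LTBP1, a latent TGF-β binding protein, rose by 0.65 (adjusted p = 0.00253 by limma) and by 0.83 after the correction (adjusted p = 0.00149). LTBP2, LTBP3 and LTBP4 fell by 0.67, 0.62 and 0.64 on the log2 scale. After the correction they were at -0.19, -0.03 and -0.01 and did not pass (adjusted p = 0.354, 0.824 and 0.944 by limma).

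**Figure D5:**
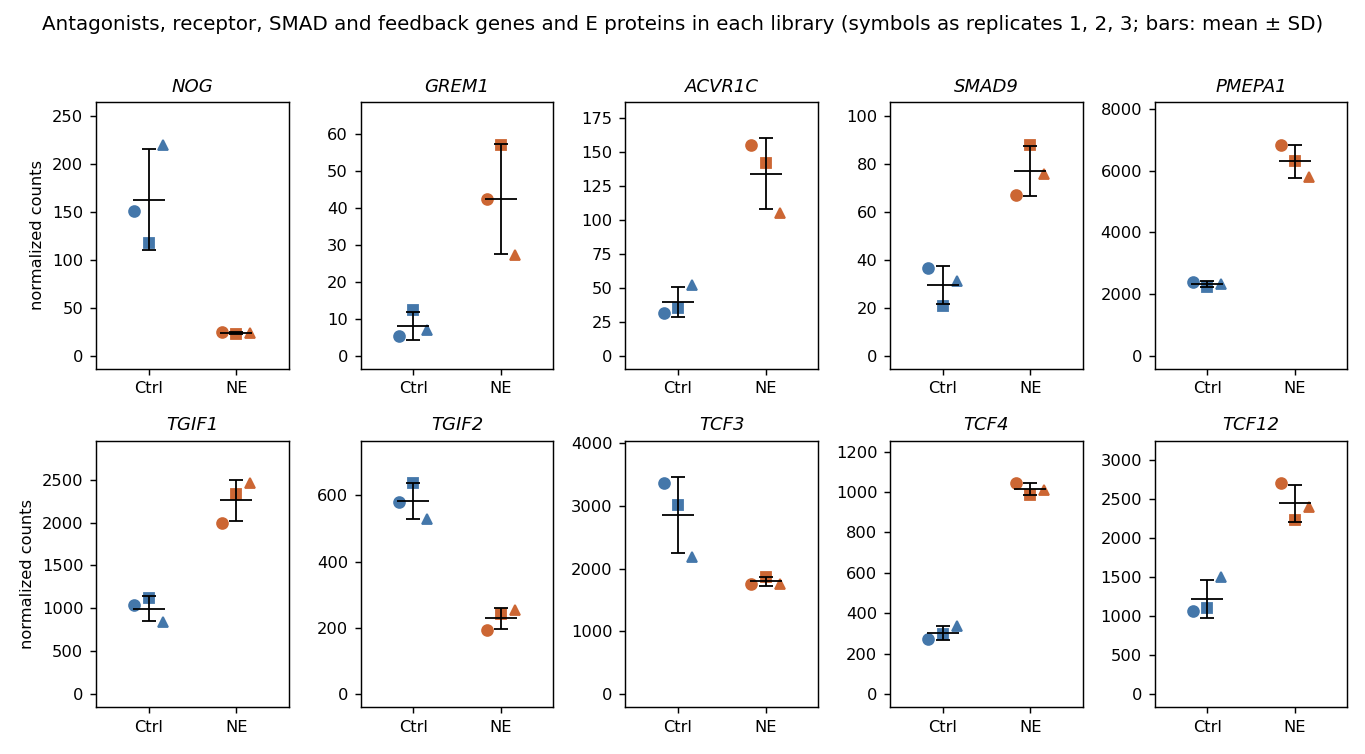
Normalized counts (vertical axes, linear, a separate scale for each gene) of 10 further pathway genes in the 3 Ctrl (blue) and 3 NE (orange) libraries; circle, square and triangle stand for replicates 1, 2 and 3, and bars for the mean ± SD. The groups are separate for each gene, with NOG, TGIF2 and TCF3 lower in NE and the other 7 higher.

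Of 11 membrane and intracellular inhibitors 10 were tested, 5 rose and 3 fell. PMEPA1, a TGF-β target whose protein limits SMAD activation, had 2398, 2228 and 2345 normalized counts in Ctrl and 6848, 6306 and 5784 in NE libraries. Its log2 fold change was 1.44 (SE 0.101, adjusted p = 3.37e-05 by limma), and 1.79 after the GC correction (adjusted p = 4.66e-06). The paralogous SMAD corepressors TGIF1 and TGIF2 moved apart, with log2 fold changes of 1.18 and -1.35 (adjusted p = 0.000269 and 0.000219 by limma) and 1.17 and -0.99 after the GC correction. SKIL and TOB1, which both restrain SMAD signaling, rose by 1.01 and 1.02. SKIL was under 2-fold without Ctrl replicate 1, Ctrl replicate 2 or NE replicate 1, and TOB1 without Ctrl replicate 1 or NE replicate 1. After the GC correction SKIL was at 0.30 (adjusted p = 0.0267) and TOB1 at 0.72 (adjusted p = 0.00085), both under 2-fold. Of the 10 genes 5 rose and 2 fell on that scale. SMURF2 had the larger of these 2 falls, at -1.14 (adjusted p = 1.8e-05 by limma), beside -0.62 before the correction (adjusted p = 0.000892). BAMBI, a pseudoreceptor, was at -0.56 and did not pass the test (adjusted p = 0.382 by limma).

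Of 23 SMAD target genes other than the members 21 were tested, 5 rose and 7 fell, with a median log2 fold change of -0.02. On the corrected scale 7 rose and 2 fell, with a median of 0.13. ANGPTL4, an inhibitor of lipoprotein lipase, had 1298, 1309 and 1064 normalized counts in Ctrl and 361, 456 and 511 in NE libraries. It fell by 1.47 on the log2 scale (SE 0.155, adjusted p = 0.000177 by limma), and by 0.89, under 2-fold, after the GC correction. COL1A1 fell by 1.26 (adjusted p = 0.0251) at 8 to 26 reads per library, and missed the test without Ctrl replicate 1, Ctrl replicate 2, NE replicate 1 or NE replicate 2 and after the GC correction (-0.71, adjusted p = 0.223).

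The E proteins that ID factors bind changed in composition. TCF4 had 272, 300 and 338 normalized counts in Ctrl and 1044, 985 and 1009 in NE libraries, a log2 fold change of 1.74 (SE 0.124, adjusted p = 3.52e-05 by limma). TCF12 rose by 1.01 (adjusted p = 0.000686), under 2-fold without Ctrl replicate 1, Ctrl replicate 2 or NE replicate 1. After the GC correction TCF4 was at 1.16 (adjusted p = 3.1e-05) and TCF12 at 0.57, under 2-fold (adjusted p = 0.00332). TCF3 fell by 0.65 (adjusted p = 0.00699), with -0.03 after the correction (adjusted p = 0.789). Per length and without the GC correction, the 3 genes summed to 35.8, 33.0 and 29.2 FPKM in Ctrl libraries. In NE libraries they summed to 34.9, 34.6 and 36.0 FPKM, and the ranges overlapped. The ratio of summed ID to summed E-protein FPKM was 4.26, 4.52 and 5.71 in Ctrl and 7.17, 9.28 and 10.1 in NE libraries, and here the groups were separate.

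The genes whose pattern over the 6 libraries was most like that of ID2, the called member with the largest rise before the GC correction and with all libraries included, were ZNF624, MUC20-OT1 and GTF3C3. Their Pearson correlations with ID2 on log2(normalized count + 1) were 0.9997, 0.9989 and 0.9989, and their own log2 fold changes were 1.23, 0.97 and 0.67. After the GC correction they were at 0.60, 1.04 and -0.01 (adjusted p = 0.115, 0.00123 and 0.979 by limma), beside 1.94 for ID2. High correlations were common over these 6 libraries, and 935 tested genes correlated with ID2 above 0.95.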

How the data were processed

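Per the labels and the study's methods, the authors mapped reads to hg38 (HISAT2 2.0.5) and counted them by gene (featureCounts 1.5.0-p3). The annotation and strand setting are not given in the sources used here. The deposited values, a signal named FPKM, are counts scaled by a single size factor in each library and not by gene length: 100% of them were whole multiples of 1 read (tolerance 0.02 reads). Columns were assigned by their letter and number.

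limma 3.58.1 (lmFit, eBayes with trend) was run on log2(value + 1) for genes averaging 10 or more. The changes of low genes depended on the scale. ID4 and BMP4 were at 1.83 and 1.01 here and at 1.41 and 0.36 by edgeR. With a pseudocount of 0.1 they were at 2.18 and 2.05. The call rule was an adjusted p under 0.05 and, where stated, an absolute log2 fold change of 1 or more. FPKM was computed here from the recovered reads. The members and lists were chosen with earlier results of these data known, and the motifs after the values were seen. Named genes were the members, every called gene of the lists, a few regulators listed by name and the genes most like ID2. Others, given above, were named after their values were seen. Alternatives were pseudocounts of 0.1 and 5, minimum means of 0.5 and 50, quantile and TMM scaling, edgeR 4.0.16, DESeq2 1.42.0, a GC correction (natural spline with 5 degrees of freedom in each library), a replicate block and leaving out each library. GENCODE v44 gave positions, exon lengths and GC content for 25813 genes. Some genes are not reported here and were left out of the lists. The limma fit was checked on simulated counts, with the same dispersion for every gene, changes only in well-covered genes and no GC trend. Because these data differ from that setting, the check does not cover low genes such as ID4 and BMP4.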

Additional observations from a re-analysis of the deposited data

How the results depend on the processing

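Of 142 values of single members under the alternatives, 130 kept their direction and their side of the threshold and 8 lost significance, 7 of them for BMP2 and 1 for SMAD7. A further 2, ID4 and TGFB2 without Ctrl replicate 3, gained it, and 2 changed sign, BMP4 without Ctrl replicate 3 (-0.379, within a range of -0.379 to 1.842 over the libraries left out) and TGFB2 after the GC correction (-0.003). The rises of ID1, ID2, ID3 and SMAD6 passed the test under every alternative run. With the GC correction, 513 genes were called higher and 398 lower, with 5 members higher and 2 pathway genes lower. Without the fold criterion there were 3693 higher and 3828 lower genes, 5 members higher and 1 lower, and 28 pathway genes higher and 20 lower. Leaving out 1 library gave 816 to 1609 genes higher and 777 to 1512 lower, 3 to 5 members higher and 0 lower, and 7 to 16 pathway genes higher and 3 to 7 lower. Without Ctrl replicate 3 the counts above 0 were at their highest, and the lowest pathway counts came without NE replicate 1 (higher) and Ctrl replicate 2 (lower). For these changes the cause was not tested. The deviations of same-numbered libraries from their group means had correlations of -0.163, 0.08 and -0.151, so no shared deviation was visible. With 3 libraries per group these values cannot tell whether same-numbered libraries were prepared together. Under the replicate block the calls were 1049 higher and 924 lower, and BMP2 missed the test (adjusted p = 0.0867 by limma). Depth limits ID4, BMP4 and INHBA, each at 25 reads or fewer in every library.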
